A study of Rattus norvegicus with 7 samples.

Results

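Testes of adult male Sprague-Dawley rats 8 h after 1 intraperitoneal injection of cadmium chloride at 3 mg/kg were compared with testes of untreated rats. The comparison took every array labelled as 8 h after cadmium (n = 2) and every array labelled as untreated (n = 3), which are 5 of the 7 arrays of the study; the other two were taken 20 h after the dose. Sprague-Dawley is an outbred stock, so the animals differ genetically. Each array is labelled as a biological replicate and is read here as 1 animal. The untreated rats are not described as having received a vehicle injection, so the injection and the metal cannot be told apart. Whole testis was used, which holds germ cells, Sertoli cells, Leydig cells, vessels and resident macrophages, and in such bulk samples fewer cells of a type and less RNA per cell cannot be told apart.

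Cadmium is a toxic metal to which the testis is unusually sensitive. Cells take it up through zinc and manganese carriers and bind it with metallothioneins, small cysteine-rich proteins whose genes are switched on by the metal-sensing factor MTF1. The best known early target in the testis is the endothelium of its vessels, whose injury is followed by leakage and loss of blood flow. Cadmium also disturbs the junctions between Sertoli cells that form the blood-testis barrier, depletes glutathione and switches on heat shock and antioxidant genes in many cell types.

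The arrays are Affymetrix Rat230_2 chips, and a value is the signal of a probe set, a linear brightness scaled so that the trimmed mean of each array was 250.1. Untreated replicate 3 and both 8 h arrays were hybridized on the same day, untreated replicate 1 on an earlier day and untreated replicate 2 alone on another. Untreated replicate 2 was also stained under another protocol, at 25 °C in place of 35 °C. The median signal was 57.1 to 72.0 on the untreated arrays and 53.8 to 55.8 on the 8 h arrays. The log2 ratio of 3' to 5' actin signal, which reflects how intact and how fully labelled the RNA was, stood at 0.73 to 1.19 on the untreated arrays and higher, at 1.39 and 1.42, on the 8 h arrays. The same ratio of Gapdh did not separate the groups, at -0.21 to -0.12 on the untreated arrays and -0.34 and -0.10 on the 8 h arrays. The part of RNA integrity in the results was not tested. The tissue carried the markers of testis on every array: Prm1, a protamine of spermatids, had a signal of 16767.1 to 28755.9 over the 5 arrays, Cldn11 of Sertoli cells 2714.5 to 3648.7 and Insl3 of Leydig cells 1126.7 to 2036.1.

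Untreated replicate 3 stood apart from the other untreated arrays. Among probe sets with a signal of at least 200 on either array of a pair, 0.743% were at least 2-fold apart between the 8 h arrays. Between untreated replicate 3 and the 8 h arrays of its day the share was 0.925% and 0.881%. Between the untreated arrays it was larger, 1.19% for replicates 1 and 2, 4.95% for replicates 1 and 3 and 4.67% for replicates 2 and 3. Between the 8 h arrays and untreated replicates 1 and 2, of other days, it was 2.52% to 3.16%. Untreated replicate 3 was thus closer to either cadmium array than to the other untreated arrays. Whether the day or the animal sets untreated replicate 3 apart was not tested, and differences are also given within the day, as log2 signal of each 8 h array minus that of untreated replicate 3, called same-day differences below.

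**Figure D1:**
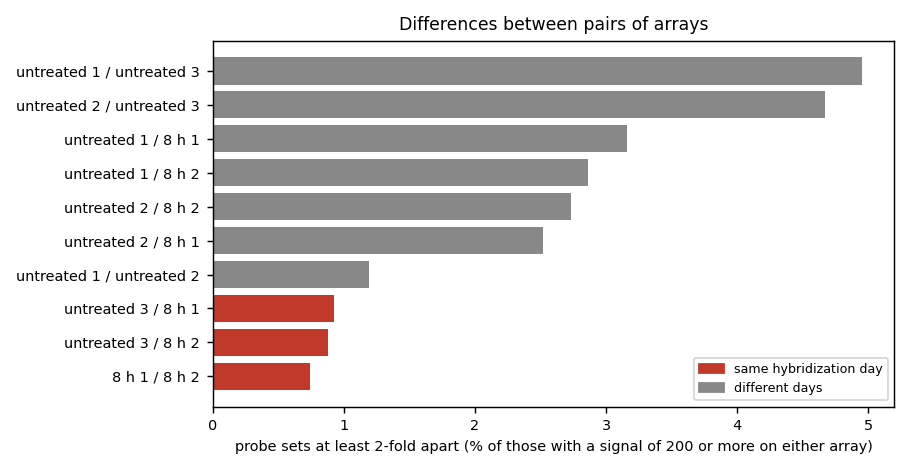
Share of probe sets at least 2-fold apart for each pair of the 5 arrays, in percent of those with a signal of 200 or more on either array; red bars are pairs hybridized on the same day and grey bars pairs of different days. The 3 same-day pairs have the lowest shares, 0.743% to 0.925%, and the pairs of untreated replicate 3 with the other untreated arrays the highest, 4.67% and 4.95%.

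No single gene passed the test over all probe sets. In limma, of 20857 probe sets tested 0 (0.0%) reached an adjusted p of 0.05, with a lowest value of 0.731. Before adjustment 242 probe sets with a higher mean at 8 h (1.16%) and 846 with a lower one (4.06%) had a limma p under 0.05. These counts were 378 and 469 under quantile normalization, 332 and 609 with arrays scaled to 1 75th percentile, 726 and 549 with the day as a block, and 1074 and 2316 without untreated replicate 3. Both 8 h arrays lay above every untreated array for 1584 probe sets (7.59%) and below every untreated array for 3218 (15.4%), against 2192 and 2035 under quantile normalization and 2320 and 2350 under 75th percentile scaling. Over all probe sets the median log2 fold change was -0.08, and 61.0% were below 0. With the day as a block that median was -0.02. It was 0.01 under quantile normalization and 0.02 under 75th percentile scaling, so the lean towards lower values was not kept when whole arrays were rescaled. Its cause was not tested. The adjusted p of each gene named below was 0.84 or above in limma, and their values are given as measured, on log2(signal + 15) for every fold change.

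Metallothionein transcripts did not separate treated from untreated testis, which with so few arrays does not show equal levels. Mt2A, a metallothionein that binds zinc, copper and cadmium, had a signal of 4204.8, 4593.2 and 3717.1 on untreated replicates 1, 2 and 3 and of 4383.7 and 4160.4 on 8 h replicates 1 and 2. Both 8 h arrays lay inside the untreated range, and the log2 fold change was 0.04 ± 0.17 (SE). Mt1, the other main metallothionein, had 109.3, 110.0 and 54.9 in untreated testis and 108.4 and 74.1 at 8 h. It also stayed inside the untreated range, with a log2 fold change of 0.03 ± 0.33 (SE). Against the untreated array of their day, Mt2A differed by 0.24 and 0.16 and Mt1 by 0.82 and 0.35. The same-day control itself had the lowest Mt1 signal of the untreated arrays. Mt3, a further metallothionein, had 1147.0, 1223.6 and 1456.8 in untreated testis and 1333.7 and 1551.2 at 8 h. Its arrays overlapped, with a log2 fold change of 0.18 ± 0.15 (SE) and same-day differences of -0.13 and 0.09.

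The promoters of Mt1 and Mt2A are shown because they carry the sequence that answers to metals, while their transcripts did not separate the groups. They are the 250 bases before the RefSeq start site in the rat build GRCr8, on the minus strand at chr19:10832976-10833225 for Mt1 and chr19:10838709-10838958 for Mt2A, written 5' to 3' along the gene. Capitals mark 2 motifs searched on both strands, with any letter allowed at N. These are a loose pattern for the core of the metal response element, TGCNCNC, and the antioxidant response element, TGACNNNGC.
Mt1: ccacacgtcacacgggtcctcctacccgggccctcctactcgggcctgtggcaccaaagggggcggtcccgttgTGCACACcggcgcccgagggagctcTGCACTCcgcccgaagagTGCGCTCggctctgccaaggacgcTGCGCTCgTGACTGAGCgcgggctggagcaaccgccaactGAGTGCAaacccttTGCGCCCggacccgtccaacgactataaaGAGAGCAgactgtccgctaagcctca
Mt2A: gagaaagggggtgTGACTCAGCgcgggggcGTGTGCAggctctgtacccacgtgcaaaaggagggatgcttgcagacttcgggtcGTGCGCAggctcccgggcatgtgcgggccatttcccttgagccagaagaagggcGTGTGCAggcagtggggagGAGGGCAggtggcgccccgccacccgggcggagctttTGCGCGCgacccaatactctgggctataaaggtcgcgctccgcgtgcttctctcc
Mt1 holds 7 matches to this loose metal pattern and Mt2A 5, each with 1 match to the antioxidant response element, and no match overlaps another. Among 33469 rat promoters with the same window length, 43.4% hold at least 1 match to the short metal motif and 10.1% to the antioxidant one. A match is a description of the letters and not of binding.

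The other genes of metal handling differed little as a group: of 14 measured members of 17 listed, 8 were higher and 6 lower by their means, and the median log2 fold change was 0.02 against -0.03 over all 11552 genes. Mtf1, which encodes the metal-sensing factor itself, had a log2 fold change of 0.01. Atp7a, a copper-exporting pump, was the 1 member whose arrays did not overlap. Its signal was 232.7, 230.3 and 210.3 in untreated testis and lower, 163.1 and 166.1, on both 8 h arrays, a log2 fold change of -0.41 ± 0.18 (SE) and same-day differences of -0.34 and -0.32. Slc39a8 encodes ZIP8, a metal carrier that takes up cadmium and whose gene sets the sensitivity of the mouse testis to it. It had 260.7, 312.7 and 222.2 in untreated testis, 112.3 and 297.7 on 8 h replicates 1 and 2. The first treated animal was therefore well below all untreated ones and the second inside their range, with same-day differences of -0.90 and 0.40. Slc30a1, a zinc exporter and a target of the metal-sensing factor, had 123.2, 108.0 and 34.0 in untreated testis and 28.9 and 60.3 at 8 h. The untreated arrays were spread over a wider range than the treated ones, and the groups overlapped.

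Endothelial markers were the list with the lowest median. Of 19 measured members of 29 listed, 18 had a lower and 1 a higher mean at 8 h. The list's median log2 fold change was -0.35, beside -0.03 over all genes. Over the untreated arrays, each taken against the mean of all 3, the list's median had an SD of 0.03. The list median of untreated replicate 3 relative to the other untreated arrays was 0.11, so the same-day control was itself higher for this list. The median same-day difference was -0.36 for 8 h replicate 1 and -0.28 for 8 h replicate 2, and 12 of the 19 members were below untreated replicate 3 on both, as were 36.2% of all probe sets. For 7 members both 8 h arrays lay below every untreated array (15.4% of all probe sets), and for 1 above (7.59%). With 1 probe set per gene, as in the lists, 1575 of 11552 genes lay below and 1066 above. Within the day, 4350 of these genes were below untreated replicate 3 on both 8 h arrays. The summed signal of the list was 1777.6, 1772.7 and 1796.7 on the untreated arrays, 1243.2 and 1456.9 on 8 h replicates 1 and 2. The 8 members with an untreated mean of at least 100 had a median of -0.42, 7 of them lower; this subset was chosen after the values were seen. The list median was -0.60 without 8 h replicate 2, -0.22 with 50 added before the log in place of 15, and -0.20 under quantile normalization.

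Receptors and adhesion molecules of the vessel wall made up most of these 7 members. Kdr, the main receptor for vascular endothelial growth factor, had 51.8, 59.5 and 55.7 in untreated testis, 3.7 on 8 h replicate 1 and 28.5 on 8 h replicate 2. Both treated animals were below a narrow untreated range, the first near the bottom of the scale, and the log2 fold change was -1.31 ± 0.43 (SE; limma, unadjusted p = 0.013). Flt1, the other receptor for that factor, had 76.6, 104.7 and 148.1 in untreated testis and 72.7 and 76.2 at 8 h. Its treated values lay just under the lowest untreated one.

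Emcn, a sialomucin of capillaries and veins, had 67.5, 66.3 and 51.3 in untreated testis and 16.9 and 35.9 at 8 h. Vwf, the von Willebrand factor stored in endothelial cells, had 70.4, 85.9 and 85.6 in untreated testis and 47.7 and 40 at 8 h. Eng, an endothelial co-receptor of TGF-beta, had 133.7, 136.3 and 100.7 in untreated testis and 68.2 and 92.8 at 8 h. These 3 genes were lower in both treated animals, at low to modest signals. Esam, an adhesion molecule of endothelial tight junctions, had 111.3, 136.4 and 77.8 in untreated testis and 63.7 and 66.6 at 8 h. Sox17, a transcription factor of arterial endothelium, had 43.1, 42.8 and 53 in untreated testis and 7.6 and 40.9 at 8 h, so that the second treated animal was only just below the untreated ones.

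The treated animals differed most in Cldn5, the claudin that seals endothelial tight junctions. Its signal was 241.2, 241.4 and 231.9 in untreated testis, 62.7 and 236.1 on 8 h replicates 1 and 2. The first animal was far below the others and the second inside the untreated range, with same-day differences of -1.67 and 0.02. In same-day terms 5 endothelial members were at least 2-fold lower on 8 h replicate 1 (2.41% of all probe sets) and 0 on 8 h replicate 2 (2.60%). At least 2-fold higher were 0 members on 8 h replicate 1 (2.61% of all probe sets) and 1 on 8 h replicate 2 (2.25%). The 1 was the adhesion receptor Adgrl4, with a same-day difference of 1.51. With 1 probe set per gene, 198 and 233 of 11552 genes were at least 2-fold lower on 8 h replicates 1 and 2. The counts higher were 193 and 166. Ptprb, an endothelial phosphatase, and Tek, the receptor for angiopoietins, did not separate the groups, with log2 fold changes of -0.02 and -0.12. Apln, a vasoactive peptide, was the member with a higher mean, at 116.7, 140.5 and 140.0 in untreated testis and 185.4 and 141.7 at 8 h.

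**Figure D2:**
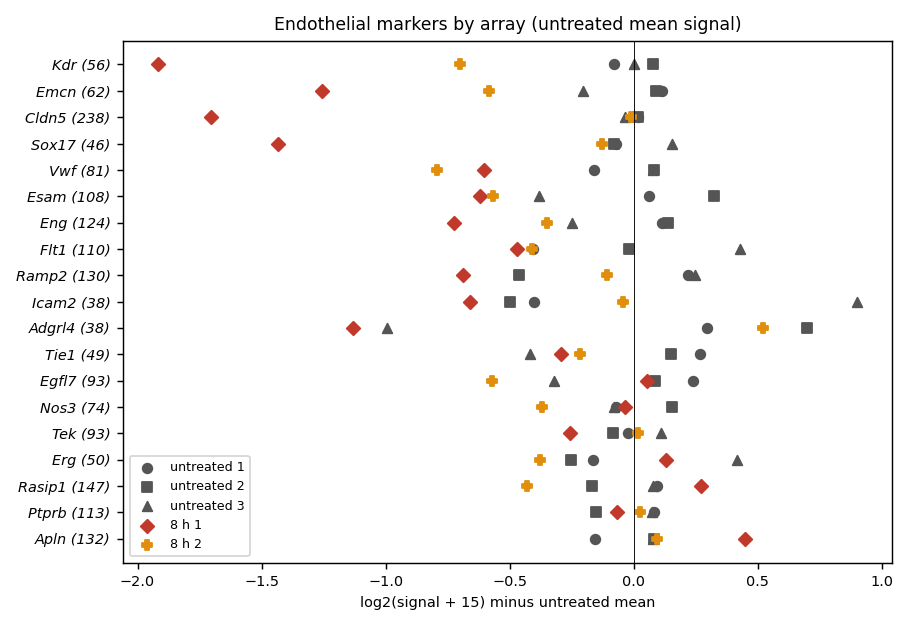
Log2(signal + 15) of the 19 endothelial markers on each array, minus the mean of the untreated arrays, with the untreated mean signal in parentheses; grey symbols are the 3 untreated arrays, the red diamond 8 h replicate 1 and the orange cross 8 h replicate 2. Kdr, Emcn, Vwf, Esam and Eng are left of all grey symbols on both 8 h arrays, while Cldn5 is so on 8 h replicate 1 only.

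Markers of other interstitial cells had medians nearer to that of all genes. Macrophage markers had a median log2 fold change of 0.17, with 12 of 16 members higher, and their summed signal was 5538.1 to 6022.8 in untreated testis and 6401.9 and 6421.8 at 8 h. Markers of peritubular myoid and smooth muscle cells had a median of -0.16, with 11 of 15 members lower. Of the 15, 2 lay below and 1 above every untreated array (15.4% and 7.59% of all probe sets). Acta2, smooth muscle actin, had a log2 fold change of -0.04. Markers of red cells, platelets and plasma had 8 of 9 members lower and a median of -0.22, and Hbb, a beta globin that marks blood, had 1038.0, 1958.1 and 1540.8 in untreated testis and 1297.2 and 1887.4 at 8 h. Of the 9, 4 lay below and 0 above every untreated array (15.4% and 7.59% of all probe sets). Among the 4 were Pf4 and Ppbp, chemokines of platelets, and Slc4a1, with 74.2, 69.8 and 107.1 in untreated testis and 65.4 and 59.9 at 8 h. Whether blood content bears on the endothelial values was not tested.

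Stress genes separated the treated animals from each other rather than the groups. Hmox1, heme oxygenase and a classic cadmium-responsive gene, had 358.5, 396.0 and 234.6 in untreated testis, 613.5 on 8 h replicate 1 and 250.2 on 8 h replicate 2. Slc7a11, the cystine carrier that feeds glutathione synthesis, had 194.8, 322.8 and 240.1 in untreated testis, 671.4 on 8 h replicate 1 and 190.5 on 8 h replicate 2. Hspa1a, the stress-inducible heat shock protein 70, had 175.4, 160.0 and 201.4 in untreated testis, 580.2 on 8 h replicate 1 and 140.9 on 8 h replicate 2. All 3 genes were above every untreated array on the first treated animal and inside or below the untreated range on the second. Their same-day differences were 1.33, 1.43 and 1.46 on 8 h replicate 1 and 0.09, -0.31 and -0.47 on 8 h replicate 2. Their log2 fold changes over both animals, 0.28 ± 0.68, 0.52 ± 0.60 and 0.66 ± 0.48 (SE), did not reach 2 times their errors.

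The pattern did not extend to the whole of these lists. Heat shock and chaperone genes had 12 of 21 measured members higher and a median of 0.05. Of the 21, 0 lay above and 2 below every untreated array (7.59% and 15.4% of all probe sets). Hsph1 and Dnajb1, other chaperones of the heat shock response, had log2 fold changes of 0.05 and 0.17. Hspb1, a small heat shock protein, was lower on both treated arrays, with 419.5, 704.2 and 459.2 in untreated testis and 398.3 and 360.3 at 8 h. Nrf2 and antioxidant genes had 18 of 27 members higher and a median of 0.08. Of the 27, 4 lay above and 3 below every untreated array, beside the same shares of all probe sets. Srxn1 and Txnrd1, enzymes that reduce oxidised thiol proteins, had log2 fold changes of -0.52 ± 0.25 and -0.30 ± 0.17 (SE), and Prdx6, a peroxiredoxin, of 0.26 ± 0.14 (SE). For Srxn1 the untreated array of the same day was close to the treated ones, with same-day differences of -0.07 and -0.20, and its other probe sets had 0.09 and -0.47 with overlapping arrays.

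Immediate early genes, transcription factors and phosphatases that respond within minutes to growth factors and stress, had 13 of 30 measured members higher and a median of -0.04. Against untreated replicate 3 the list median was 0.26 for 8 h replicate 1 and -0.09 for 8 h replicate 2. Egr1 had 65.1, 67.1 and 106.3 in untreated testis, 208.1 and 58.2 on 8 h replicates 1 and 2. The first treated animal had the highest and the second the lowest signal of the 5. Fos had 7.5, 2.5 and 19.3 in untreated testis and 45.3 and 22.3 at 8 h, and Atf3, a stress-induced factor, had 6.0, 5.0 and 1.9 and then 38.5 and 24.8. Both genes were above every untreated array on both treated animals, at signals below the arrays' median. Egr3, a relative of Egr1, lay the other way, with 115.8, 131.2 and 82.4 in untreated testis and 36.6 and 47.5 at 8 h. Its treated values were less than all untreated ones, with a log2 fold change of -1.12 ± 0.33 (SE; limma, unadjusted p = 0.0075) and same-day differences of -0.92 and -0.64.

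The Egr1 promoter is shown because it holds a serum response element core, through which many immediate early genes are switched on. It is the 250 bases before the RefSeq start site on the plus strand at chr18:26736828-26737077 of GRCr8, and capitals mark the serum response element core, searched on both strands.
Egr1: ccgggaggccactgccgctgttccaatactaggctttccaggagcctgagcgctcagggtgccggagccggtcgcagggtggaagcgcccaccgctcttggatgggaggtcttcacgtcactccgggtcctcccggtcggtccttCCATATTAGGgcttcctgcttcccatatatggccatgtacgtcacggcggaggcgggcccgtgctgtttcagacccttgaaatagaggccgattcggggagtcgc
These exact letters occur in 0.0299% of the 33469 promoters. The same window of Slc7a11 and Hspa1a held none of the 4 motifs searched. These were the loose metal pattern TGCNCNC, the antioxidant response element, the serum response element core in those letters and the heat shock element GAANNTTC. The search says nothing of variant letters or of sequence outside the window.

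Steroid-producing genes of Leydig cells also set the treated animals apart. Cyp17a1, which turns progestins into androgens, had 1116.0, 2239.5 and 2046.2 in untreated testis, 3852.3 on 8 h replicate 1 and 1415.6 on 8 h replicate 2. Scarb1, the receptor that supplies cholesterol from lipoproteins, had 281.4, 349.0 and 328.8 in untreated testis, 628.3 on 8 h replicate 1 and 205.3 on 8 h replicate 2. In both genes the first treated animal had the highest signal of the 5; the second was the lowest in Scarb1 and inside the untreated range in Cyp17a1. Cyp11a1, the enzyme that starts steroid synthesis, had 878.3, 893.0 and 1102.2 in untreated testis and 1630.3 and 984.4 at 8 h. Fdx1, its electron donor, had 1580.5, 1620.7 and 2230.0 and then 2941.4 and 1874.4. Star, which carries cholesterol into mitochondria, had 476.5, 561.0 and 951.5 and then 966.5 and 462.1. In each of these 3 genes 8 h replicate 1 was the highest array, by a narrow margin in Star.

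Of 19 measured genes of Leydig cells and steroidogenesis 13 were higher at 8 h by their means, and the list median was 0.17. The same-day medians were 0.11 for 8 h replicate 1 and -0.25 for 8 h replicate 2, and a fit with the day as a block gave -0.30. That fit takes the offset between days partly from the 20 h arrays, which were hybridized on different days. Cyp17a1 had 127.4 and 1403.4 on 20 h replicates 1 and 2, and its day-block value was -0.42 beside same-day differences of 0.91 and -0.53. The direction of the list thus differed between the treated animals and between the fits, and the part of the day was not separated from that of the 20 h animals. The list median of untreated replicate 3 itself, relative to the other untreated arrays, was 0.34. The summed signal was 13374.7, 14605.5 and 18652.4 on the untreated arrays and 22570.3 and 16519.0 on the 8 h arrays. Hsd11b1, which interconverts active and inactive glucocorticoids in Leydig cells, was above every untreated array on both treated animals, with 1148.8, 1341.5 and 1715.8 in untreated testis and 2244.9 and 1990.2 at 8 h. Insl3, a peptide hormone of Leydig cells, was so too, with a log2 fold change of 0.50 ± 0.26 (SE) and same-day differences of 0.11 and 0.15.

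**Figure D3:**
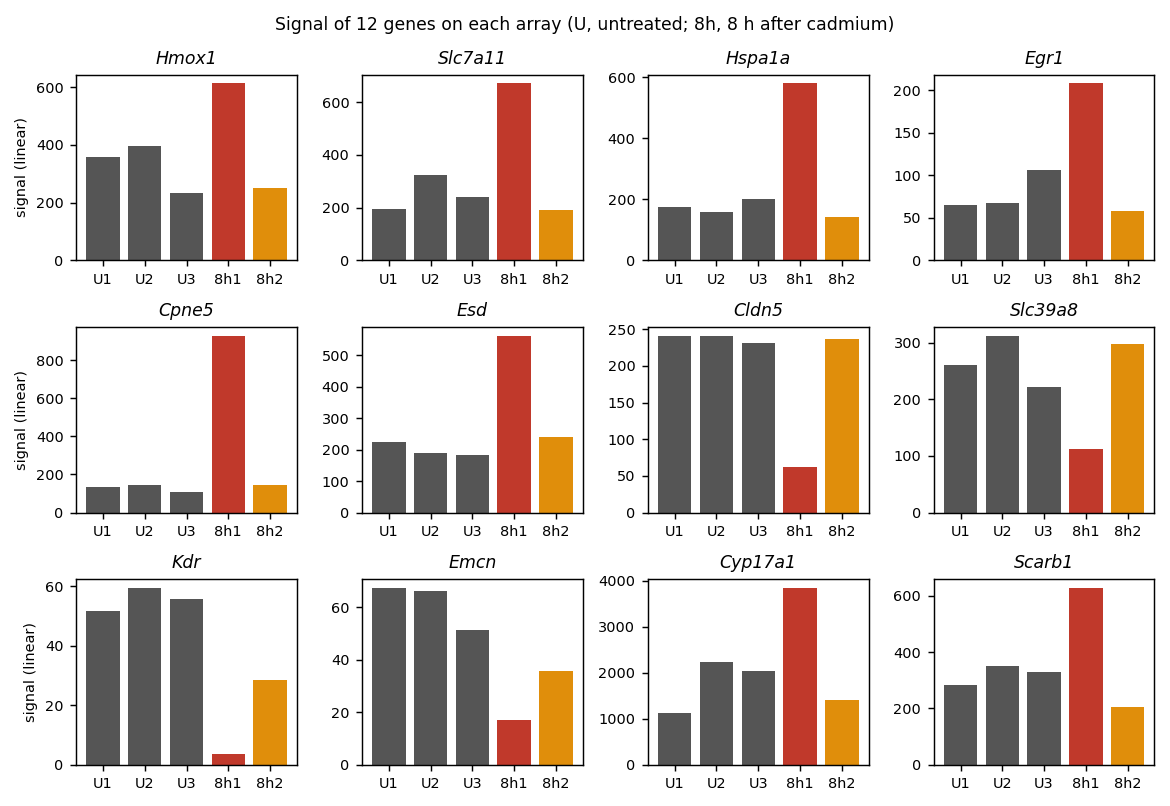
Signal, on a linear scale from 0, of 12 genes on each of the 5 arrays; grey bars are untreated replicates 1 to 3, the red bar 8 h replicate 1 and the orange bar 8 h replicate 2, each bar 1 array. Hmox1, Slc7a11, Hspa1a, Egr1, Cpne5, Esd, Cyp17a1 and Scarb1 are highest on 8 h replicate 1, Cldn5 and Slc39a8 are lowest there, and Kdr and Emcn are low on both 8 h arrays.

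Genes that stood out on 1 treated animal were listed by a rule: at least 2-fold from each of the other 4 arrays. On 8 h replicate 1 there were 17 such probe sets above (0.0815%) and 113 below (0.542%), and on 8 h replicate 2 there were 9 above (0.0432%) and 136 below (0.652%). Among probe sets with a signal of at least 200 the counts were 8 above and 10 below on 8 h replicate 1 and 2 above and 2 below on 8 h replicate 2. The untreated arrays gave 14 and 8, 9 and 4, and 7 and 10 by the same rule, counts of about the size of those on 8 h replicate 1.

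Cpne5, a calcium-dependent membrane-binding protein, had the widest gap above among the named genes of this rule. Its signal was 134.2, 142.4 and 106.3 in untreated testis, 929.4 on 8 h replicate 1 and 144.6 on 8 h replicate 2. Esd, esterase D, had 225.5, 189.6 and 182.5 in untreated testis and 562.6 and 239.1 at 8 h. Pias1, a SUMO ligase, had 593.0, 566.5 and 613.3 in untreated testis and 1259.0 and 544.7 at 8 h. All 3 were high on the first treated animal, though another probe set of Pias1 did not differ between the groups, with a log2 fold change of 0.01. Mtch1, a protein of the outer mitochondrial membrane, was the 1 named gene high on 8 h replicate 2, with 1686.0, 1733.6 and 1774.3 in untreated testis, 1747.4 on 8 h replicate 1 and 4276.5 on 8 h replicate 2.

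Several of the genes that stood out on 8 h replicate 1 encode RT1 molecules of the rat major histocompatibility complex. RT1 is a polymorphic family with near-identical copies, so single probe sets are uncertain measures of its members. RT1-Bb, a class II beta chain, has 2 such probe sets that ran in opposite directions: one had 761.1, 716.5 and 9.4 in untreated testis and 1807.0 and 38.2 at 8 h, the other 881.3, 707.4 and 86.9 and then 3.1 and 1412.5. RT1-Db1, another class II beta chain, had 182.9, 160.0 and 15.2 and then 494.1 and 18.8. RT1-CE5, a class I gene, had 171.7, 166.9 and 387.7 and then 2.5 and 388.6. In all of these probe sets untreated replicate 3 also stood far from the other untreated animals. Cd74, the invariant chain that accompanies class II molecules, had 378.7, 481.3 and 424.1 in untreated testis and 435.0 and 353.4 at 8 h, without such jumps.

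Genes whose treated and untreated animals did not overlap were ranked by the gap between the nearest arrays, among those with a mean signal of at least 200 in a group; as the rule chose them by this contrast, their values describe and do not test it. The widest gap above untreated was that of Slc27a2, an enzyme that activates very long chain fatty acids. Its signal was 369.6, 67.7 and 91.1 in untreated testis and 825.8 and 1075.9 at 8 h. Both treated animals were at least 2-fold above the highest untreated one, with a log2 fold change of 2.67 ± 0.80 (SE; limma, unadjusted p = 0.0079), while the untreated animals differed more than 5-fold among themselves. Zcchc9, a zinc-knuckle protein, had 200.3, 231.1 and 131.7 and then 328.9 and 463.2, a log2 fold change of 1.03 ± 0.26 (SE).

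Hp and Stat3 belong to the acute phase response. Hp, haptoglobin, which binds free hemoglobin, had 729.9, 692.5 and 1518.7 in untreated testis and 2388.0 and 1981.1 at 8 h. Both treated animals were highest, but untreated replicate 3 lay closer to them than to the other untreated animals, with same-day differences of 0.65 and 0.38 beside a log2 fold change of 1.23 ± 0.32 (SE). Stat3, the transcription factor downstream of interleukin 6, had 163.0, 157.4 and 139.0 and then 316.0 and 231.0, a log2 fold change of 0.77 ± 0.37 (SE). A second Stat3 probe set had the same direction but overlapping arrays, with 89.6, 136.6 and 112.8 and then 191.8 and 132.2. Socs3, a target and inhibitor of that pathway, had 48.1, 30.4 and 57.4 in untreated testis and less, 7.5 and 24.7, at 8 h.

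Among the other genes of this higher set, Tbcc, a tubulin folding cofactor, had 144.1, 147.4 and 144.2 and then 225.3 and 215.8, a log2 fold change of 0.56 ± 0.21 (SE). Mfap5, a protein of extracellular microfibrils, had 563.6, 552.8 and 571.2 and then 778.9 and 776.7. Bbs12, a chaperonin-like protein of cilia, had 206.5, 203.1 and 207.3 and then 306.1 and 290.3. In these 3 genes the untreated animals lay within a few percent of each other and the treated ones as close together at a higher level. Cfap126, a protein of cilia and flagella, had 1278.9, 1144.7 and 1732.5 and then 2429.3 and 2385.9. Phf20l1, Gpatch11, Rbbp6 and Zcrb1 had log2 fold changes of 0.66, 0.60, 0.61 and 0.50. The remaining 4 probe sets of Rbbp6, a ubiquitin ligase, had 0.03, -0.03, -0.41 and -0.55. Those of Phf20l1, a chromatin reader, had 0.09 and -1.29, the latter with both treated arrays below every untreated one, opposite to the probe set listed.

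Below untreated, Vti1b, a SNARE protein of endosomal vesicles, had the widest gap, with 174.7, 266.7 and 165.4 in untreated testis and 86.9 and 99.4 at 8 h. Its log2 fold change was -0.98 ± 0.23 (SE; limma, unadjusted p = 0.0022). Alkbh6, a member of the AlkB dioxygenase family, had 350.7, 277.4 and 322.4 and then 156.3 and 180.9, a log2 fold change of -0.85 ± 0.19 (SE; limma, unadjusted p = 0.0013) and same-day differences of -0.98 and -0.78. In both genes the treated animals lay close together and well under the untreated ones. U2af2, which recognises the 3' splice site, had 940.0, 1041.9 and 816.7 and then 574.6 and 601.0, a log2 fold change of -0.65 ± 0.20 (SE). A second U2af2 probe set agreed, with 138.8, 167.8 and 133.1 and then 57.0 and 73.9, and the third, the dimmest, had a log2 fold change of 0.08.

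Repin1, a zinc-finger protein, had 309.9, 317.6 and 303.9 in untreated testis and 207.5 and 206.2 at 8 h, and Abhd13, a hydrolase, 207.4, 209.3 and 205.7 and then 145.0 and 144.9. Both were steady within each group. Ints13, a subunit of the Integrator complex, had a log2 fold change of -0.71 ± 0.27, Fbxo21, a ubiquitin ligase subunit, of -0.53 ± 0.17, and Pde8a, a phosphodiesterase that breaks down cyclic AMP, of -0.54 ± 0.17 (SE). Ank3, a membrane-anchoring ankyrin, and Numbl, an adaptor related to the Notch inhibitor Numb, had -0.68 ± 0.19 and -0.96 ± 0.34 (SE). Other probe sets had overlapping arrays for Ints13, at -0.52 and -0.53, for Fbxo21, at -0.44, and for Ank3, at -0.35 and -0.41. Second probe sets were closer to no difference for Pde8a, at -0.09, and for Rtn3, a reticulon, at 0.05 against -0.65 for the probe set listed. Cry2, a clock repressor, had 237.8, 240.7 and 160.3 and then 102.9 and 118.0, with -0.20 on its second probe set.

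**Figure D4:**
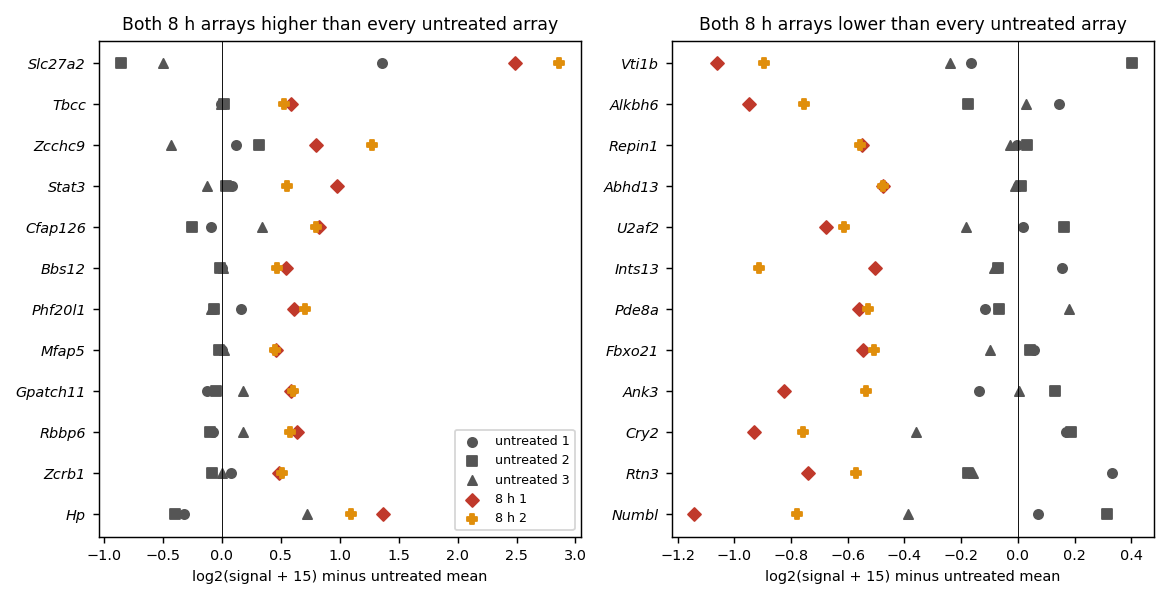
Log2(signal + 15) on each array, minus the mean of the untreated arrays, of the 12 genes with the widest gap above (left) and below (right) the untreated animals; grey symbols are the 3 untreated arrays, the red diamond 8 h replicate 1 and the orange cross 8 h replicate 2. Slc27a2 has the widest gap above, with a log2 fold change of 2.67, and the genes below range from -0.48 for Abhd13 to -0.98 for Vti1b.

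Immune cell and inflammatory genes lay in both directions. Cd163, the hemoglobin-haptoglobin scavenger receptor of resident macrophages, was above every untreated array in both treated animals, with 52.3, 37.4 and 42.2 in untreated testis and 106.8 and 84.3 at 8 h. Its log2 fold change was 0.91 ± 0.29 (SE; limma, unadjusted p = 0.012). Csf1r, the receptor for macrophage colony-stimulating factor, lay the other way, with 127.5, 122.9 and 128.9 and then 70.8 and 102.1. Ctss, a macrophage protease, had 189.4, 167.5 and 193.8 and then 330.5 and 205.3, the first treated animal well above the rest. Mrc1, the mannose receptor and one of the brightest of these markers, had a log2 fold change of -0.05.

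Neutrophil and myeloid markers had 4 of 9 measured members higher and a median of -0.14, with a summed signal of 1309.4 to 1675.7 in untreated testis and 1491.1 and 1344.1 at 8 h. Chemokines and NF-kB targets had 13 of 17 members lower and a median of -0.08, with 2 above and 5 below every untreated array, beside 7.59% and 15.4% of all probe sets. Il33, an alarmin released by injured cells, had 18.3, 26.5 and 23.8 in untreated testis and more, 60.4 and 48.8, on both treated animals. Relb, an NF-kB subunit, had 104.1, 125.5 and 96.6 and then 66.6 and 53.2. Interferon and histocompatibility genes had 18 of 23 members lower and a median of -0.08. Of the 23, 3 lay above and 6 below every untreated array, beside the same shares of all probe sets. Oasl, an interferon-induced protein, had 102.1, 135.1 and 92.1 and then 46.5 and 76.7, while B2m, the light chain of class I molecules, was higher, with 2259.3, 2902.1 and 3298.1 and then 3722.6 and 3565.3.

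Sertoli cell markers were evenly split, with 10 of 20 measured members higher and a median of 0.00. Of the 20, 3 lay above and 5 below every untreated array (7.59% and 15.4% of all probe sets). Inhba, an activin subunit, was above, with 18.2, 5.3 and 33.4 in untreated testis and 56.9 and 36.7 at 8 h. Amhr2, the receptor for anti-Müllerian hormone, had 587.9, 613.8 and 632.0 in untreated testis and 498.4 and 473.3 at 8 h. Dhh, the hedgehog ligand of Sertoli cells, had 107.8, 96.0 and 106.1 and then 78.8 and 66.7, and Kitlg, the ligand that sustains spermatogonia, 180.3, 213.2 and 182.8 and then 138.4 and 156.7. These 3 genes were lower on both treated animals. Wt1, a transcription factor of Sertoli cells, was so by a narrower margin, and its same-day differences were only -0.04 and -0.03. Amh and Inha had overlapping arrays, with log2 fold changes of 0.24 ± 0.27 and 0.08 ± 0.17 (SE).

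Of 29 blood-testis barrier and cell junction genes 3 lay above and 2 below every untreated array (7.59% and 15.4% of all probe sets). For this barrier list 11 members were higher and the median was -0.08. The brightest probe sets of its core components did not separate: Cldn11, the claudin of Sertoli tight junctions, had a log2 fold change of 0.10 ± 0.18, Ocln, occludin, of -0.23 ± 0.26, and Tjp1, their scaffold, of -0.10 ± 0.14 (SE). Ctnnb1, beta-catenin, had 0.02 ± 0.15 and Cdh2, a cadherin, had -0.62 ± 0.39 (SE), both with overlapping arrays. Other, dimmer probe sets were lower at -0.35 for Cldn11, -0.59 for Ocln, -0.95 for Tjp1, -0.12 for Ctnnb1 and -0.10 for Cdh2, all with overlapping arrays. A further Ctnnb1 probe set was nearly as bright as the brightest, with an untreated mean of 1661.0 beside 1774.0. It had -0.42 ± 0.18 (SE) and same-day differences of -0.18 and -0.14, with both treated arrays below every untreated one. Itga6, an integrin subunit, was below every untreated array, with 125.5, 121.1 and 109.1 and then 84.1 and 83.0. Itgb1, a partner subunit, was above, with 275.6, 380.8 and 416.6 and then 459.4 and 435.0. Their other probe sets had overlapping arrays, at -0.42, -0.76 and -0.38 for Itga6 and 0.10 for Itgb1. Among proteases, inhibitors and TGF-beta genes 15 of 29 were higher, with a median of 0.08. Tgfb3, a cytokine known to open the barrier, had -0.05 ± 0.22 and A2m, a protease inhibitor, -0.03 ± 0.15 (SE). Tgfb2 was lower on both treated animals, with 46.4, 59.8 and 73.5 and then 41.9 and 26.1, and Timp3, a metalloprotease inhibitor, was higher, with 381.3, 378.2 and 437.9 and then 527.7 and 498.9, while its other probe sets had 0.14, -0.74 and 0.40.

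Spermatid markers were higher at 8 h over all untreated arrays but not within the day. Of 29 measured spermatid markers 28 were higher at 8 h by their means, and the list median was 0.30. Both 8 h arrays lay above every untreated array for 8 (7.59% of all probe sets) and below for 0 (15.4%). Within the day the medians were 0.05 and -0.03, the fit with a day block gave 0.01, and untreated replicate 3 was above the other untreated arrays by 0.41. Crem, the activator of the spermatid programme, kept some distance within the day, with 2033.7, 1999.1 and 2383.2 in untreated testis and 3049.2 and 2622.7 at 8 h and same-day differences of 0.35 and 0.14. Zpbp, a protein of the acrosome, did as well, with 3875.3, 3029.7 and 3721.8 and then 4440.9 and 4709.4 and same-day differences of 0.25 and 0.34. The other Crem probe sets had log2 fold changes of 0.44, 0.23, 0.07 and 0.01, all with overlapping arrays except that at 0.23.

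Spermatocyte markers had 13 of 17 members higher and a median of 0.08, with same-day medians of 0.03 and 0.10. Of the 17, 2 lay above and 1 below every untreated array (7.59% and 15.4% of all probe sets). Those above were Smc1b and Ldhc, the latter with same-day differences of 0.15 and 0.10. Aurkc lay below, with 1307.7, 1263.9 and 1170.0 in untreated testis and 1051.8 and 1113.0 at 8 h. Smc1b, a cohesin of meiotic chromosomes, had 1654.7, 1827.2 and 1193.6 in untreated testis and 2083.5 and 2432.6 at 8 h. Here the same-day control was the lowest of the untreated arrays, so that the same-day differences, 0.80 and 1.02, were larger than the log2 fold change of 0.55 ± 0.19 (SE). Spermatogonial markers had 4 of 8 members higher; Kit, the receptor of differentiating spermatogonia, had 91.4, 74.1 and 47.4 and then 38.2 and 33.4, with a wide spread in untreated testis. Cdk1, the kinase that starts cell division, was lower on both treated animals, with 736.9, 796.9 and 797.2 and then 572.9 and 597.4. Its cell cycle list had 14 of 29 members higher and a median of 0.00. Of the 29, 1 lay above and 4 below every untreated array (7.59% and 15.4% of all probe sets). The 1 above was Ccnb1, with 2063.8, 2129.2 and 2927.9 and then 3122.6 and 3068.8, same-day differences of 0.09 and 0.07, and -0.06 on its second probe set.

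Hypoxia and glycolysis genes had 14 of 28 members higher and a median of -0.01. Ankrd37, a hypoxia-induced gene, had 163.5, 166.0 and 182.0 and then 264.3 and 213.8, and Pfkfb3, a regulator of glycolysis, 103.7, 99.5 and 66.8 and then 40.6 and 48.8, with -0.09 on its second probe set. Vegfa, the vascular growth factor, had 95.7, 47.2 and 47.2 in untreated testis, 111.4 and 32.9 on 8 h replicates 1 and 2, the highest and the lowest of the 5. Genes of p53 and apoptosis had 10 of 21 members higher and a median of -0.08, with 4 above and 4 below every untreated array, beside 7.59% and 15.4% of all probe sets. Phlda3, a p53 target, was above, with 83.5, 33.0 and 62.6 and then 86.8 and 88.6. Xiap, a caspase inhibitor, was below on both of its probe sets, with log2 fold changes of -0.74 ± 0.29 (SE) and -0.64. Bcl2l11, the death activator BIM, had -0.74 ± 0.26 (SE), but its other probe sets had 0.40 and -0.08 with overlapping arrays.

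Unfolded protein and integrated stress response genes had 12 of 22 members higher and a median of 0.06. Glucocorticoid response genes had 12 of 17 higher and a median of 0.05. Of the 17, 3 lay above and 0 below every untreated array (7.59% and 15.4% of all probe sets). Dusp1, a phosphatase induced by stress and glucocorticoids, had 173.2, 125.9 and 70.9 in untreated testis and 183.7 and 235.0 at 8 h, and its second probe set 52.9, 52.6 and 58.4 and then 76.8 and 74.8. Proteasome genes had 25 of 29 higher with a median of 0.12, but same-day medians of -0.10 and 0.00. Reference genes had a median of 0.16, with 7 of 12 higher; Rplp0, a ribosomal protein often used as a reference, had 4709.7 and 4866.2 on untreated replicates 1 and 2 and 7105.0, 7263.3 and 7354.5 on the arrays of the treated day. Epididymis markers had a median of -0.18 over the 4 measured members, with a summed signal of 8364.1 to 10059.1 in untreated testis and 9715.9 and 9973.1 at 8 h. The listed genes include Clu, which is also on the Sertoli cell list, so this sum cannot be read as epididymis content.

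**Figure D5:**
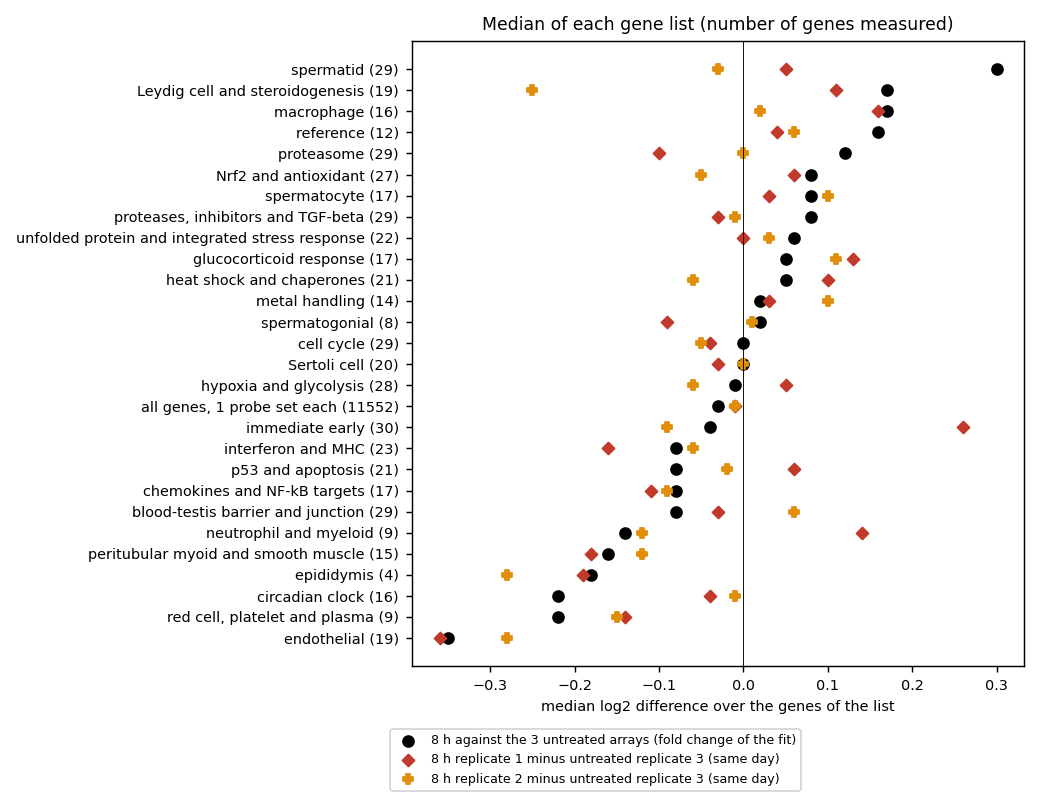
Median log2 difference of the 27 gene lists and of all genes, with the number of genes measured in parentheses; black circles are the fold change of the fit over the 3 untreated arrays, red diamonds and orange crosses the same-day differences of 8 h replicates 1 and 2 from untreated replicate 3. The endothelial list has all 3 symbols at or below -0.28, the spermatid list has its circle at 0.30 and its same-day symbols near 0, and the immediate early and Leydig cell lists have same-day symbols on opposite sides of 0.

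Within the day, 245 probe sets were at least 2-fold higher (1.17%) and 121 at least 2-fold lower (0.58%) on both 8 h arrays than on untreated replicate 3. Of these, 59 and 95 lay outside the range of all untreated arrays. With a signal of at least 200, 16 were higher and 11 lower, of which 6 and 4 lay outside that range. The named lower ones included collagen genes of connective tissue, of which only Col3a1 lay outside that range. Col1a1, a chain of type I collagen, had 270.9, 314.1 and 736.6 in untreated testis and 261.4 and 279.5 at 8 h, and Col3a1, of type III collagen, 391.6, 315.7 and 760.4 and then 240.2 and 309.0. In both genes untreated replicate 3 was the array that stood apart, and the treated animals were at or just under the level of the other untreated ones. Among the higher ones, Ccp110, a centriolar protein, had 1050.2, 1044.3 and 334.3 and then 912.4 and 885.2, again with untreated replicate 3 apart. Prss40, a serine protease of testis, had 1068.5, 407.1 and 400.5 and then 1362.2 and 1669.4, above all untreated animals.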

How the data were processed

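Signal intensities of MAS 5.0, deposited by the authors on a linear scale, were used for 7 arrays; the series' text also names GeneSpring 7.2. The instrument's experiment files hold other information per the file headers (hybridization day, staining) and no measured values; that of untreated replicate 2 gives mouse as sample type, where its labels and array type are of rat. The sources used here name no build for the probe sets. Of 31042 non-control probe sets, 20826 name 1 gene. Values were log2(signal + 15), and a probe set was kept if it exceeded the 40th percentile of the array on 2 or more arrays (20857, for 11552 genes). All 3 groups were fitted in limma 3.58.1 (R 4.3.3, eBayes with intensity trend), with Benjamini-Hochberg adjustment and a threshold of 0.05; the script was tested on simulated data. Arrays give no counting depth; their number limits the precision, and the p-values are over animals as labelled.

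Named were the 12 genes with the widest gap above and below the untreated arrays (mean signal of at least 200), up to 10 higher and 10 lower ones at least 2-fold from the other 4 arrays on each 8 h array, up to 3 non-overlapping members per list, and 35 genes fixed by name, of which Pecam1, Fshr, Ccl2 and Il1b were not measured; other list members and the genes of the same-day paragraph were picked with their values in view. Some genes chosen by these rules are not described above. Lists use 1 probe set per gene, the brightest. Percentages beside their counts are over all probe sets. With 1 probe set per gene, 1066 of 11552 genes lay above and 1575 below every untreated array. Members and lists were chosen with earlier results of these data known. Replicate numbers served only as names. In fits with the day as a block, the 20 h arrays also entered the offset between days.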

Additional observations from a re-analysis of the deposited data

How the results depend on the processing

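No probe set passed in any setting tried, except 1 without 8 h replicate 2 (range 0 to 1 over arrays left out), which has no gene name here (limma, adjusted p = 8.76e-05); the single 8 h array left is there assumed to have the spread of the other groups. Probe sets with an unadjusted p under 0.05 numbered 242 higher and 846 lower; the counts were 726 and 549 with the day as a block, 421 and 1315 without the filter, and 378 and 469 under quantile normalization. They were 157 higher without the intensity trend and 332 lower with the filter at the 60th percentile. Leaving out 1 array gave 56 (without 8 h replicate 1) to 1074 higher and 390 (without untreated replicate 1) to 2316 lower, both highest counts without untreated replicate 3; without 8 h replicate 2 there were 98 higher, and without untreated replicate 2 there were 135 higher and 421 lower. Probe sets with arrays that do not overlap, 1584 higher and 3218 lower, were 2035 lower under quantile normalization, 5033 lower without the filter and 1665 lower with it at the 60th percentile. Leaving out 1 array gave 2270 to 3851 higher and 4072 to 7769 lower, as fewer arrays leave fewer chances to overlap. Blocks, pseudocounts and eBayes settings give no value for it.

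The endothelial median of -0.35 was -0.30 under 75th percentile scaling, -0.31 with the day as a block, -0.40 with the 60th percentile filter, -0.48 with a pseudocount of 1, -0.22 with one of 50, -0.20 under quantile normalization and -0.29 as the mean same-day difference. Over arrays left out it ran from -0.60 (without 8 h replicate 2) to -0.29, and members with an untreated mean of at least 100, a subset added after seeing the data, had -0.42. It was below 0 in every setting run.

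The replicate number as a block gave 0 passing probe sets, 1132 higher and 2627 lower ones at an unadjusted p under 0.05 and an endothelial median of -0.42. The numbers did not pair the animals: across 11552 genes the correlation of the replicate 1 minus 2 differences of the groups was -0.02. With that replicate block the log2 fold change turned for RT1-Db1 (-0.50), RT1-Bb (-1.28), Mt1 (-0.25), Mt2A (-0.04), A2m (0.04) and Vegfa (-0.09).

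Of 133 named probe sets, 98 kept their direction in all 18 settings, and the lowest adjusted p of any was 0.19. With the day as a block the sign turned for Id4 (-0.11), Egln1 (0.03), the second Cry2 probe set (0.05), Klf9 (-0.03), Slc30a1 (0.22), Cldn11 (-0.08), Ocln (0.08), Ctnnb1 (-0.16), Tgfb3 (0.03), Star (-0.47), Cyp17a1 (-0.42), Cyp11a1 (-0.24), Prm1 (-0.06), Tnp1 (-0.02) and Cdkn1a (0.14). Under 75th percentile scaling it turned for Hsf2 (0.03), Tjp1 (0.01), Tgfb3 (0.04) and A2m (0.08), and under quantile normalization for Mt2A (-0.15), Cldn11 (-0.05), Ctnnb1 (-0.06), Tgfb3 (0.09), A2m (0.02) and Prm1 (0.00).

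Over arrays left out, the sign turned for Hspa1a (-0.31 to 1.62), RT1-Db1 (-1.59 to 2.33), RT1-Bb (-2.17 to 2.92 and -4.48 to 1.82 on its probe sets), Slc7a11 (-0.35 to 1.39), Pias1 (-0.11 to 1.07), RT1-CE5 (-3.77 to 0.76), Arhgef28 (-2.54 to 0.16), Brcc3-ps7 (-2.36 to 0.92), RT1-A (-1.77 to 0.46), Slc35b1 (-1.18 to 0.02), Slc39a8 (-1.13 to 0.17), Hmox1 (-0.35 to 0.90), Egr1 (-0.34 to 1.27), Star (-0.44 to 0.60), Cyp17a1 (-0.28 to 1.15) and Vegfa (-0.65 to 0.75), each without 8 h replicate 1 among others. It turned by less for Mt1 (-0.25 to 0.26), Mt2A (-0.04 to 0.11), Cldn11 (-0.07 to 0.28), Ctnnb1 (-0.06 to 0.12), Tgfb3 (-0.19 to 0.09) and A2m (-0.09 to 0.04). The cause of these turns was not tested. Values of dim genes such as Kdr and Sox17 lie near the bottom of the scale, where signal over background limits the fold change.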

Other observations

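Clock genes had a median log2 fold change of -0.22, with 13 of 16 measured members lower. Of the 16, 3 lay below every untreated array (15.4% of all probe sets) and 0 above (7.59%). Per1, a core repressor of the clock, had a signal of 541.8, 459.4 and 138.3 in untreated testis and 170.2 and 179.4 at 8 h. Tef, a clock output factor, had 269.3, 243.0 and 150.0 and then 137.4 and 157.2. In both genes untreated replicate 3 lay with the treated animals, and the list's same-day medians were -0.04 and -0.01. The list median of untreated replicate 3 relative to the other untreated arrays was -0.37. The labels used here give no hour of killing, and whether it differed was not tested.

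Some genes that stood apart on 8 h replicate 1 did so on 20 h replicate 1 as well, and others did not. The 20 h arrays, replicate 1 before replicate 2, had 864.9 and 97.5 for Cpne5, 748.6 and 170.1 for Slc7a11, 1604.7 and 217.2 for Hmox1 and 783.9 and 92.7 for Egr1. Cldn5 had 52.5 and 252.9 and Slc39a8 90.6 and 237.7. For all 6 genes 20 h replicate 1 was outside the untreated range on the side of 8 h replicate 1. Hmox1, Egr1 and Slc39a8 were not among the genes of the 2-fold rule. Of the others of that rule, only Hspa1a and Esd did likewise, at 284.1 and 348.3. Pias1, RT1-CE5, RT1-A and Slc35b1 had 495.9, 412.9, 394.9 and 342.8, inside the untreated range or beyond its other side. So were RT1-Db1, RT1-T24-4, Arhgef28, Brcc3-ps7 and both RT1-Bb probe sets. Mtch1, high on 8 h replicate 2, had 1178.2 and 4014.0. Slc27a2, high on both 8 h arrays, had 136.2 and 1079.3. The first 6 genes, Mtch1 and Slc27a2 were picked with their values in view. Replicates of different times are different animals, and no cause was tested.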
